A study of Mus musculus with 15 samples.

Results

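The genes described here are 10 that are used to recognise perivascular and meningeal fibroblasts in the brain or that encode leucine-rich repeat proteins of their matrix: Dcn, Lum, Bgn, Fmod, Ogn, Prelp, Aspn, Islr, Pdgfra and Igf2. They were taken from the table of expression values by exact gene symbol, and each symbol was found once, giving 10 of the 22526 symbols in the table. All 10 had a mean of at least 1 FPKM (fragments counted on a gene, scaled to its length and to the size of the library), the filter used for testing. No measured value entered their choice, but they were proposed with earlier results of these data known.

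Small leucine-rich proteoglycans are secreted proteins whose curved core of leucine-rich repeats binds collagen fibrils and sets fibril spacing and diameter, and many carry chondroitin, dermatan or keratan sulfate chains. Several also hold growth factors in the matrix, decorin being known for binding transforming growth factor beta. In the brain most of them are made by fibroblasts of the meninges and of the sheath around larger vessels, while capillaries are mostly without such cells.

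RNA was sequenced in bulk from cerebral vessels isolated from wild-type C57BL/6 mice aged 8 months, in 15 libraries forming 3 groups of 5. LH3-AL mice were given an adeno-associated virus carrying LH3 by stereotactic injection and were treated with angiotensin II and L-NAME. LH3 is lysyl hydroxylase 3, the product of Plod3, which hydroxylates and glycosylates collagen lysines, and L-NAME inhibits nitric oxide synthase. GFP-AL mice were given a virus carrying green fluorescent protein and the same drugs. GFP-Veh mice were given the green fluorescent protein virus and saline. All animals carried a virus and had brain surgery, and no group received the LH3 virus with saline. The labels do not name the promoter of either virus, and they do not say whether each library came from its own mouse, so p-values measure the spread between libraries, which may be technical. The series concerns intracerebral haemorrhage driven by hypertension, and the comparisons ask what the drugs changed and what the LH3 virus changed under the drugs.

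The 100 bases upstream of the start site are printed for Ogn, Aspn, Prelp and Fmod, which were lower in GFP-AL than in GFP-Veh vessels, and for Bgn and Islr, which did not pass the test, so that the promoters of genes that did and did not move can be read side by side. They come from RefSeq on GRCm38.p6 and read 5′ to 3′ in the direction of transcription. Capitals mark a searched motif, which is GGAATG (the TEAD site) in Ogn, CCAAT in Prelp and GGGCGG (the GC box, here on the opposite strand, with overlapping matches) in Bgn.
Ogn: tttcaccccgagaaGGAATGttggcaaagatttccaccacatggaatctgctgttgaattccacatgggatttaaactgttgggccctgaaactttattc
Aspn: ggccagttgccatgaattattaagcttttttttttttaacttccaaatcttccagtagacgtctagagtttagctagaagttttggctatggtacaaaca
Prelp: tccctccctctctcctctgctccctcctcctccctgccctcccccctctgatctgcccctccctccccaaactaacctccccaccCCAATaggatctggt
Fmod: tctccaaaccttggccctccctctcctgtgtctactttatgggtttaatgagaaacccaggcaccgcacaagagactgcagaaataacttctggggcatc
Bgn: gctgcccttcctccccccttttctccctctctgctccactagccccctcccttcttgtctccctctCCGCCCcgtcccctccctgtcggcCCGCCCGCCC
Islr: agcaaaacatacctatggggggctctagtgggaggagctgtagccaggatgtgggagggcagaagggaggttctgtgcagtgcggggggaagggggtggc
These stretches lie at chr13:49607915-49608014 (plus strand) for Ogn, chr13:49544343-49544442 (plus) for Aspn, chr1:133921402-133921501 (minus) for Prelp, chr1:134037154-134037253 (plus) for Fmod, chrX:73483501-73483600 (plus) for Bgn and chr9:58158555-58158654 (minus) for Islr. Start sites are those of RefSeq and can differ from those of GENCODE, whose gene positions are given further on.

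Of the 10 genes 8 had an entry among the RefSeq promoters (250 bases before to 50 after the start), Igf2 with 4 start sites, and no sequence is printed for Dcn and Lum. Both strands of these windows were searched for the TATA box (TATAAA), the CCAAT box, the GC box (GGGCGG), the AP-1 site (TGACTCA), the STAT site (TTCNNNGAA), the TEAD site (GGAATG) and the CArG box. Base composition ranged widely, with 31.0% G or C in the Aspn window, 42.3% in Ogn, 51.0% in Fmod and 55.3% in Prelp. It was 51.0% in Pdgfra, 57.0% in Islr, 63.7% in Bgn and 49.7 to 64.7% in the Igf2 windows. TATAAA was found in the Ogn and Aspn windows and in none of the others, whereas 13.6% of all 32851 windows hold it. CCAAT, held by 37.4% of all windows, was found in those of Fmod, Prelp, Aspn and 1 of the 4 Igf2 starts. GGGCGG, held by 35.7%, was found in the windows of Bgn and of 2 Igf2 starts. It was in none of those of Ogn, Aspn, Prelp, Fmod, Islr and Pdgfra. GGAATG, held by 14.7%, was found in Ogn and in 3 of the Igf2 starts. The AP-1 letters, held by 5.2% of all windows, and the STAT letters, held by 8.3%, were in none of the windows searched, and the CArG box, held by 1.6%, was in 1 Igf2 start. None of these motifs was in all 4 of the Ogn, Aspn, Prelp and Fmod windows. These are matches of letters only.

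The estimated depth (from the steps between low values, in M for mega) ranged over 18.09 to 31.59 M fragments for LH3-AL, 21.39 to 27.8 M for GFP-AL and 13.5 to 29.66 M for GFP-Veh libraries, of which replicates 1 to 4 did not exceed 15.94 M. Plod3, the gene carried by the LH3 virus, was listed at 19.5 to 23.2 FPKM in LH3-AL, 12.2 to 14.9 in GFP-AL and 16 to 17.6 in GFP-Veh, without overlap; whether its reads come from the virus or the genome cannot be told apart in a table of gene levels. The endothelial marker Cldn5 was listed at 758 to 1740 FPKM in all libraries. On the first principal component, which held 43.6% of the variance, GFP-AL replicates 2 and 3 lay farthest out, and GFP-Veh replicate 2 stood apart on later components, so results are also given without these 3 libraries, a choice made after seeing the data.

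Fibroblast transcripts were present in every library. Of 30 other perivascular and meningeal fibroblast markers 29 passed the filter, and the fibrillar collagen chains Col1a1 and Col1a2 averaged 17.6 ± 2.03 and 11.2 ± 1.49 FPKM in LH3-AL, 19.4 ± 5.45 and 11.1 ± 2.44 FPKM in GFP-AL, and 17.8 ± 3.37 and 12.1 ± 2.21 FPKM in GFP-Veh vessels (SD, n = 5). Among the 10 genes described here Dcn was the most abundant, at a mean of 159 FPKM over all 15 libraries, above 98.8% of tested genes. Fmod (55.5 FPKM), Islr (47.3), Ogn (44.1), Prelp (41.7) and Bgn (39.3) formed a middle tier. Lum (19.2 FPKM), Aspn (15.9) and Igf2 (15.4) came next, and Pdgfra was lowest at 5.23 FPKM, above 44.9% of tested genes. Neighbours within these tiers differed in their means by less than the range of either across the libraries, so their order is not firm, while Dcn exceeded every other of the 10 genes in every library.

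**Figure D1:**
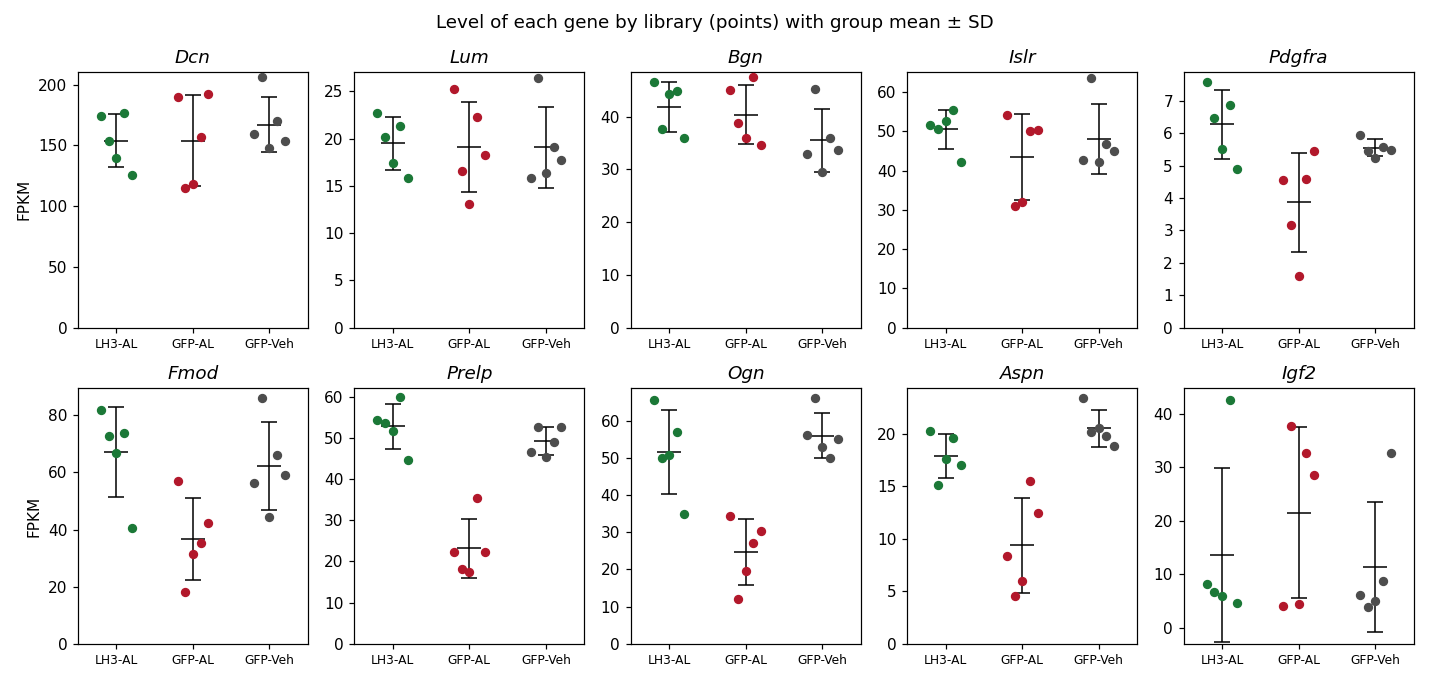
Level in FPKM (vertical axis) of each of the 10 genes in every library (points), by group, with the group mean and its SD (bars, n = 5). Ogn, Prelp and Aspn lie lower in all 5 GFP-AL libraries than in any GFP-Veh library, Dcn, Lum and Bgn spread over the same range in the 3 groups, and Igf2 splits into 5 libraries at 28.5 to 42.5 FPKM and 10 at 3.83 to 8.81 FPKM.

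In GFP-AL vessels 4 of the 7 proteoglycan genes, Fmod, Prelp, Ogn and Aspn, were lower than in GFP-Veh vessels, by 1.74-fold to 2.35-fold, and in LH3-AL vessels the same 4 genes were higher than in GFP-AL vessels. Dcn, Lum and Bgn, the other 3 proteoglycans, did not pass the test in either comparison. Of all 10 genes, 4 were called lower and 0 higher in GFP-AL against GFP-Veh, where 17.7% of the 13082 tested genes were called lower and 10.8% higher (limma, adjusted p below 0.05, and 0 of the 10 genes were higher at an unadjusted p below 0.05). In LH3-AL against GFP-AL 5 of the 10 were called higher and 0 lower, against 17% and 11.4% of tested genes (again 0 lower at an unadjusted p below 0.05). The added gene was Pdgfra. Both comparisons share the GFP-AL libraries, so opposite signs in them are not independent. In bulk vessels, fewer cells of a type and less RNA per cell cannot be told apart.

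**Figure D2:**
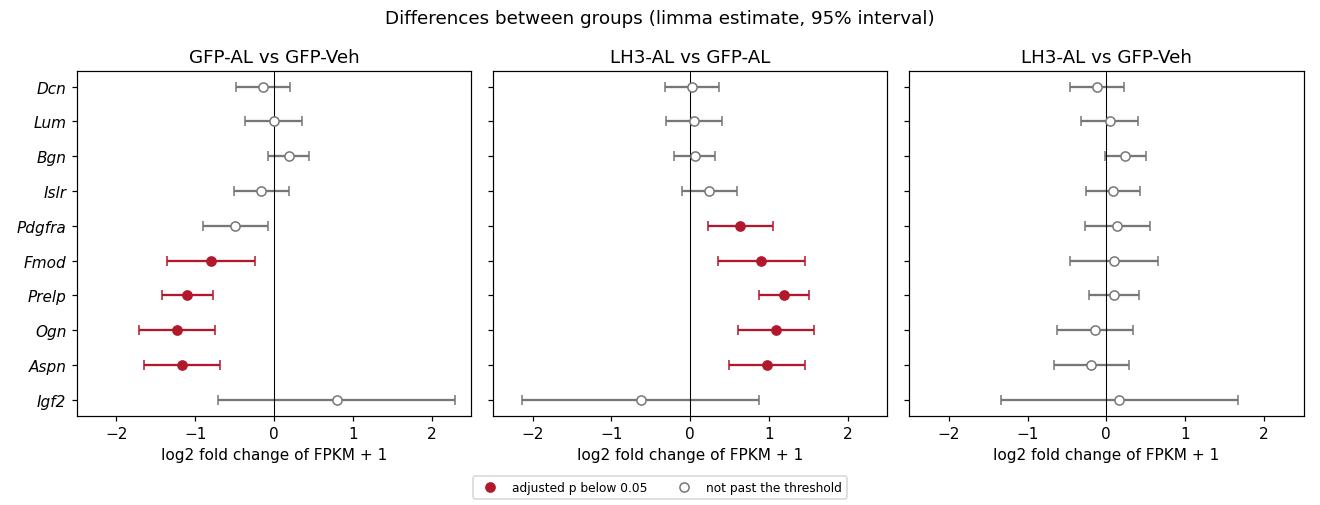
Log2 fold change of FPKM + 1 (horizontal axis) for each gene in the 3 comparisons, as estimated by limma with its 95% interval (bars); filled red points have an adjusted p below 0.05. The filled points are Fmod, Prelp, Ogn and Aspn to the left of 0 in GFP-AL vs GFP-Veh, the same 4 genes and Pdgfra to the right of 0 in LH3-AL vs GFP-AL, and no gene in LH3-AL vs GFP-Veh.

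Dcn (chr10:97479609-97518143, plus strand, GRCm38, 9 exon blocks) encodes decorin, a class I proteoglycan that decorates collagen fibrils. It was listed at 174, 154, 140, 177 and 126 FPKM in LH3-AL replicates 1 to 5, at 190, 115, 118, 157 and 192 FPKM in GFP-AL, and at 159, 206, 148, 170 and 154 FPKM in GFP-Veh. The groups overlapped throughout, GFP-AL replicates 2 and 3 being the lowest of all libraries. The log2 fold change was -0.14 ± 0.16 (SE) in GFP-AL against GFP-Veh, with a 95% interval of -0.48 to 0.20 (adjusted p = 0.527, limma), and 0.02 ± 0.16 in LH3-AL against GFP-AL, with an interval of -0.32 to 0.36 (adjusted p = 0.923).

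Bgn (chrX:73483602-73495933, plus strand) encodes biglycan, the close relative of decorin, which in soluble form also acts on Toll-like receptors. Biglycan transcripts stood at 46.6, 37.7, 44.3, 44.9 and 36 FPKM in LH3-AL, at 45, 38.8, 36, 47.6 and 34.7 FPKM in GFP-AL, and at 33, 45.3, 29.6, 36 and 33.6 FPKM in GFP-Veh. All 3 groups overlapped. Its log2 fold change was 0.19 ± 0.12 in GFP-AL against GFP-Veh (95% interval -0.08 to 0.45, adjusted p = 0.273) and 0.06 ± 0.12 in LH3-AL against GFP-AL (interval -0.21 to 0.32, adjusted p = 0.76).

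Aspn (chr13:49544443-49567565, plus strand, 8 exon blocks) encodes asporin, a class I relative of decorin that binds collagen and carries a run of aspartates near its start. Aspn stood at 20.3, 15.1, 17.6, 19.6 and 17 FPKM in LH3-AL, at 8.35, 4.57, 5.96, 15.5 and 12.5 FPKM in GFP-AL, and at 23.4, 20.2, 20.5, 19.8 and 18.8 FPKM in GFP-Veh. Every GFP-AL library was below every GFP-Veh library, while GFP-AL replicate 4 reached into the LH3-AL range. Aspn fell 2.24-fold in GFP-AL against GFP-Veh (log2 fold change -1.16 ± 0.23, adjusted p = 0.00161, limma). It was 1.97-fold higher in LH3-AL than in GFP-AL (log2 fold change 0.97 ± 0.23, adjusted p = 0.00599, limma).

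Lum (chr10:97565128-97572703, plus strand, 3 exon blocks) encodes lumican, a class II keratan sulfate proteoglycan. Its level was 22.7, 20.2, 17.4, 21.3 and 15.8 FPKM in LH3-AL, 25.3, 16.6, 13.1, 22.3 and 18.3 FPKM in GFP-AL, and 15.8, 26.4, 16.4, 19.1 and 17.7 FPKM in GFP-Veh. The 3 group means, 19.5 ± 2.84, 19.1 ± 4.77 and 19.1 ± 4.29 FPKM in LH3-AL, GFP-AL and GFP-Veh, differed by less than the SD of any group. The log2 fold change in GFP-AL against GFP-Veh was -0.01 ± 0.17 (95% interval -0.37 to 0.35, adjusted p = 0.983, limma) and that in LH3-AL against GFP-AL was 0.05 ± 0.17 (interval -0.31 to 0.41, adjusted p = 0.852).

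Fmod (chr1:134037254-134048277, plus strand, 3 exon blocks) encodes fibromodulin, the class II proteoglycan that shares its collagen site with lumican and binds lysyl oxidase. It was listed at 82, 72.6, 66.7, 73.9 and 40.5 FPKM in LH3-AL, at 57.1, 18, 31.5, 35.4 and 42.2 FPKM in GFP-AL, and at 56.3, 86.1, 44.4, 66.1 and 59 FPKM in GFP-Veh. The groups overlapped, since GFP-AL replicate 1 was as high as GFP-Veh replicate 1 and LH3-AL replicate 5 was within the GFP-AL range. Fmod fell 1.74-fold in GFP-AL against GFP-Veh (log2 fold change -0.80 ± 0.26, adjusted p = 0.0317, limma; exact two-sided permutation p = 0.0238) and was 1.87-fold higher in LH3-AL than in GFP-AL (log2 fold change 0.90 ± 0.26, adjusted p = 0.0194). The call against GFP-Veh was lost in a fit of the 2 groups alone and with depth as a covariate (adjusted p = 0.167). It was also lost without GFP-Veh replicate 2, 4 or 5 (adjusted p = 0.0645, 0.067 and 0.0554) and without GFP-AL replicate 2 or 3 (0.0694 and 0.0652). Without the 3 libraries that stood apart its log2 fold change was -0.34 ± 0.23 (adjusted p = 0.3) against GFP-Veh and 0.56 ± 0.22 (adjusted p = 0.0899) in LH3-AL against GFP-AL, and the call in LH3-AL against GFP-AL was also lost without LH3-AL replicate 1 (adjusted p = 0.051).

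Prelp (chr1:133910304-133921414, minus strand, 3 exon blocks) encodes a class II protein with a proline and arginine rich end that binds heparan sulfate, and it is found where collagen meets basement membrane. Prelp stood at 54.4, 53.6, 51.6, 59.9 and 44.6 FPKM in LH3-AL, at 22.3, 18.2, 17.5, 35.4 and 22.4 FPKM in GFP-AL, and at 46.6, 52.6, 45.4, 49 and 52.6 FPKM in GFP-Veh. No GFP-AL library reached any library of the other groups, and GFP-AL replicate 4 came closest. Prelp fell 2.14-fold in GFP-AL against GFP-Veh (log2 fold change -1.10 ± 0.15, adjusted p = 0.000113, limma). It was 2.29-fold higher in LH3-AL than in GFP-AL (log2 fold change 1.19 ± 0.15, adjusted p = 9.96e-05), and both exact two-sided permutation tests gave p = 0.00794, the smallest that 5 libraries a group allow. The antisense gene Gm15851 covers 9.7% of the Prelp exon bases, and the labels do not say whether the libraries keep strand, so reads from the pair cannot be told apart there.

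Ogn (chr13:49608046-49624501, plus strand, 7 exon blocks) encodes osteoglycin, also called mimecan, a class III member with few leucine-rich repeats. Its level was 65.5, 49.9, 50.7, 57.1 and 34.9 FPKM in LH3-AL, 34.4, 12.1, 19.5, 27.1 and 30.3 FPKM in GFP-AL, and 56.3, 66.1, 52.9, 50 and 55.1 FPKM in GFP-Veh. All GFP-AL libraries lay below all others, although LH3-AL replicate 5 and GFP-AL replicate 1 nearly met. Ogn fell 2.35-fold in GFP-AL against GFP-Veh (log2 fold change -1.23 ± 0.23, adjusted p = 0.00115, limma). It was 2.13-fold higher in LH3-AL than in GFP-AL (log2 fold change 1.09 ± 0.23, adjusted p = 0.00312), and the exact two-sided permutation p was 0.00794 in both.

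The groups did not overlap for 3 of the 10 genes (Ogn, Prelp and Aspn, all lower) in GFP-AL against GFP-Veh, where 10.1% of tested genes were lower and 6.59% higher without overlap. They did not overlap for 2 (Ogn and Prelp, both higher) in LH3-AL against GFP-AL, where 11% of tested genes were higher and 8.45% lower without overlap. In LH3-AL against GFP-Veh 0 of the 10 genes were without overlap, against 2.06% of tested genes that were higher and 2.61% that were lower in that way. The calls for Ogn, Prelp and Aspn held in both comparisons under all alternative settings run, but without the 3 libraries the estimates were smaller. In GFP-AL against GFP-Veh they were -0.79 for Ogn, -0.87 for Prelp and -0.76 for Aspn, and in LH3-AL against GFP-AL 0.71 for Ogn, 0.98 for Prelp and 0.56 for Aspn (largest adjusted p = 0.0263, limma). The authors' deposited table of genes changed by at least 1 log2 unit, which holds 7.82% of all genes for GFP-AL against GFP-Veh, lists Prelp at a log2 fold change of -1.09 (q = 0.00013), Ogn at -1.18 (q = 0.000134) and Aspn at -1.14 (q = 0.00455). Their other table, whose values follow LH3-AL against GFP-AL though its name gives GFP-Veh, holds 7.74% of genes and lists Prelp at a log2 fold change of 1.2 (q = 1.92e-05) and Ogn at 1.07 (q = 0.00139). The other 7 genes are in neither of the authors' deposited tables.

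The makeup of the proteoglycan transcripts followed from these levels. Fmod, Ogn, Prelp and Aspn together made up 43.5 to 48% of the summed FPKM of the 7 proteoglycans in LH3-AL libraries, 23.7 to 33.3% in GFP-AL and 44.8 to 47.4% in GFP-Veh. Their sum was 137 to 222 FPKM in LH3-AL, 52.9 to 122 in GFP-AL and 163 to 225 in GFP-Veh, while Dcn, Lum and Bgn summed to 178 to 243 FPKM in LH3-AL, 167 to 260 in GFP-AL and 194 to 277 in GFP-Veh. The share held by the 4 genes was lower in each GFP-AL library than in any other library, including GFP-AL replicates 1, 4 and 5, in which Dcn, Lum and Bgn summed to 260, 227 and 245 FPKM. This split of the 7 genes was chosen after their values were seen, so these shares are a description and carry no test.

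**Figure D3:**
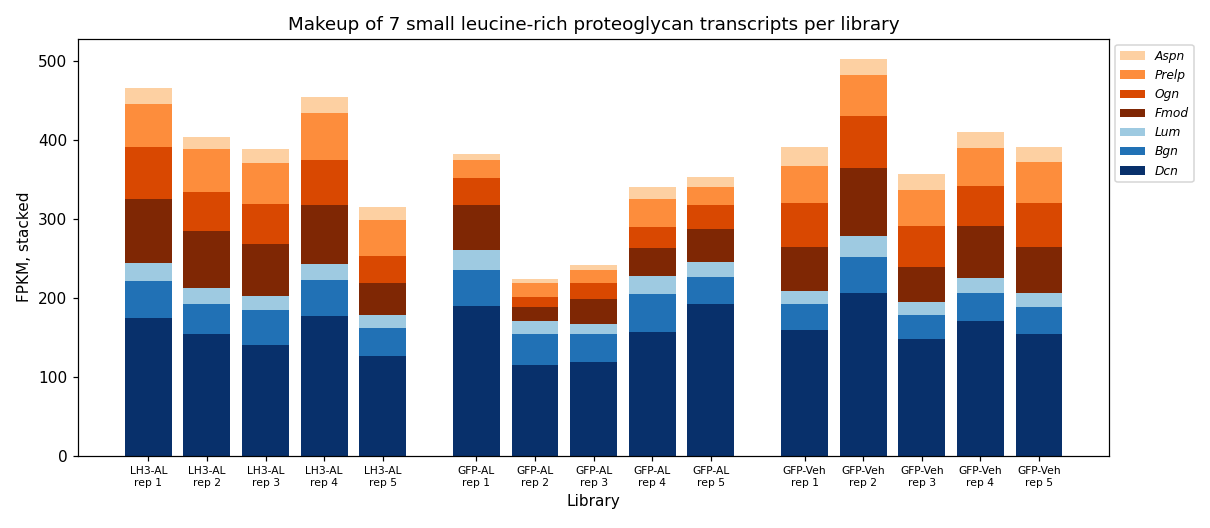
Stacked FPKM of the 7 small leucine-rich proteoglycan genes (vertical axis) in each library (bars), with Dcn, Bgn and Lum in blue and Fmod, Ogn, Prelp and Aspn in orange and brown. The orange and brown part is 52.9 to 122 FPKM in GFP-AL libraries, against 137 to 222 in LH3-AL and 163 to 225 in GFP-Veh, while the blue part overlaps between the 3 groups.

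Most of these genes sit in clusters of related genes. On GRCm38 Ecm2, Aspn, Omd and Ogn lie next to each other on chromosome 13 within 119.7 kb, Dcn, Lum, Kera and Epyc on chromosome 10 within 202.8 kb, and Optc, Prelp and Fmod on chromosome 1 within 151.1 kb, with no other protein-coding gene lying wholly between neighbours. Cenpp, a centromere protein gene on the opposite strand, overlaps the chromosome 13 cluster and shares 7 bases of the Aspn exons. In the chromosome 13 cluster Ecm2, which encodes an extracellular matrix protein with leucine-rich repeats, was listed at 39.6, 29.6, 26.7, 30.1 and 23 FPKM in LH3-AL, at 10.7, 4.83, 6.27, 15.4 and 10.8 FPKM in GFP-AL, and at 32.6, 31.6, 36.1, 32.2 and 34 FPKM in GFP-Veh. It lay lower in all GFP-AL libraries than in any other, as Ogn did. Its log2 fold change was -1.79 ± 0.22 in GFP-AL against GFP-Veh (limma, adjusted p = 5.31e-05) and 1.62 ± 0.22 in LH3-AL against GFP-AL (adjusted p = 0.000187). Without the 3 libraries these were -1.41 and 1.21, and both passed the test.

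Omd, which encodes osteomodulin, a class II proteoglycan of bone matrix, averaged 9.64 ± 3.06 FPKM in LH3-AL, 5.69 ± 2.29 in GFP-AL and 9.87 ± 2.11 in GFP-Veh. It fell in GFP-AL against GFP-Veh with a log2 fold change of -0.78 ± 0.28 (adjusted p = 0.045, limma), but the call was lost when libraries were scaled by the median of ratios (adjusted p = 0.0722), with quantile normalization (0.066), with depth as a covariate (0.182) and without the 3 libraries (-0.31, adjusted p = 0.303). Its log2 fold change in LH3-AL against GFP-AL was 0.72 ± 0.28 (adjusted p = 0.0618). All 4 genes of the chromosome 13 cluster were therefore lower in GFP-AL than in GFP-Veh vessels in the fit of all libraries, whereas the expressed pair on chromosome 10, Dcn and Lum, did not pass the test. Epyc did not exceed 0.107 FPKM and Optc 0.276 FPKM in any library, and the symbol Kera was not among those with deposited values.

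**Figure D4:**
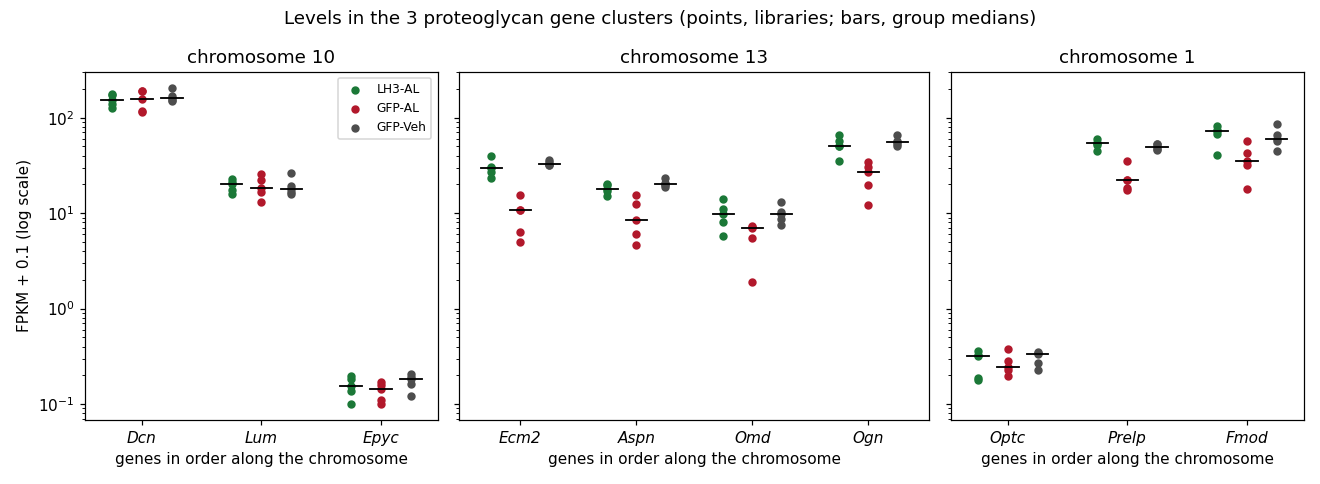
FPKM + 0.1 on a log axis (vertical) in every library (points) for the genes of 3 proteoglycan clusters, in their order along the chromosome, with group medians (bars). On chromosome 13 the GFP-AL points of Ecm2, Aspn, Omd and Ogn lie below the GFP-Veh points, on chromosome 10 Dcn and Lum overlap between the groups, and Epyc and Optc are near the floor of the axis.

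Among 5 tested relatives of the proteoglycans outside the 10 genes, 3 were called lower and 0 higher in GFP-AL against GFP-Veh and 2 higher and 0 lower in LH3-AL against GFP-AL. Their median log2 fold changes were -0.78 and 0.72, beside -0.09 and 0.08 over all tested genes. Calls lower in GFP-AL against GFP-Veh took in 17.7% of all tested genes, and calls higher in LH3-AL against GFP-AL 17%. Besides Ecm2 and Omd, Islr2 was called, and Podn and Tsku were not (means of 1.12 to 1.56 FPKM). With either scaling of the libraries only Ecm2 was called lower in GFP-AL.

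Islr (chr9:58156268-58204306, minus strand, 6 exon blocks), which encodes a membrane-anchored leucine-rich repeat protein also called meflin and marks mesenchymal stromal cells, was listed at 51.7, 50.7, 52.7, 55.3 and 42.1 FPKM in LH3-AL, at 54.1, 30.9, 32.1, 50.1 and 50.3 FPKM in GFP-AL, and at 42.6, 63.5, 42.2, 46.7 and 44.9 FPKM in GFP-Veh. GFP-AL replicates 2 and 3 were the lowest and the other 3 GFP-AL libraries lay among the rest. The log2 fold change was -0.16 ± 0.16 in GFP-AL against GFP-Veh (95% interval -0.51 to 0.19, adjusted p = 0.486, limma) and 0.24 ± 0.16 in LH3-AL against GFP-AL (interval -0.10 to 0.59, adjusted p = 0.271). Its neighbour Islr2, a related protein of neurons, averaged 11.1 ± 4.75 FPKM in LH3-AL, 3.1 ± 2.89 in GFP-AL and 7.29 ± 2.36 in GFP-Veh. The log2 fold change of Islr2 was -1.33 ± 0.46 in GFP-AL against GFP-Veh (limma, adjusted p = 0.0404), a call lost with both scalings (-1.24 and -1.26, adjusted p = 0.0652 and 0.0639) and with depth as a covariate (-1.34, adjusted p = 0.134), while without the 3 libraries it was -2.03 (adjusted p = 0.00842). Its log2 fold change was 1.81 ± 0.46 in LH3-AL against GFP-AL (adjusted p = 0.00995). The pair share 6.7% of the Islr exon bases on the same strand, and reads there can be assigned to either.

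Pdgfra (chr5:75152292-75198215, plus strand, 27 exon blocks) encodes the alpha receptor for platelet-derived growth factor, and in brain it marks oligodendrocyte precursors as well as fibroblasts. Pdgfra stood at 7.6, 6.48, 5.53, 6.88 and 4.9 FPKM in LH3-AL, at 4.57, 3.16, 1.59, 4.58 and 5.47 FPKM in GFP-AL, and at 5.96, 5.44, 5.25, 5.59 and 5.49 FPKM in GFP-Veh. The GFP-Veh libraries were tightly grouped and GFP-AL replicate 5 reached into them. Pdgfra was 1.55-fold higher in LH3-AL than in GFP-AL (log2 fold change 0.63 ± 0.19, adjusted p = 0.0245, limma). In GFP-AL against GFP-Veh its log2 fold change was -0.49 ± 0.19 (adjusted p = 0.0675), and it was called lower without GFP-AL replicate 5 (-0.61, adjusted p = 0.0265). The call in LH3-AL against GFP-AL was lost without GFP-AL replicate 2 (adjusted p = 0.0517), LH3-AL replicate 1 (0.0631) or LH3-AL replicate 4 (0.0564), in a fit of those 2 groups alone (0.0611), and without the 3 libraries (0.30, adjusted p = 0.0824). Of 7 tested markers of oligodendrocyte precursors other than Pdgfra, 5 were lower in GFP-AL than in GFP-Veh, including Olig1 (-1.06 ± 0.21, adjusted p = 0.00188) and Ptprz1 (-0.94 ± 0.22, adjusted p = 0.00568), and 5 were higher in LH3-AL than in GFP-AL. Those directions held 17.7% and 17% of all tested genes. With depth as a covariate 3 of the 7 were lower and 4 higher in those comparisons, and without the 3 libraries 4 and 3. Ptprz1 was not called in LH3-AL against GFP-AL without the 3 libraries (0.58, adjusted p = 0.0524, limma). The 11 markers of the precursor list summed to 52.9 to 104 FPKM in LH3-AL, 35 to 46.8 in GFP-AL and 61.7 to 87 in GFP-Veh, with Gpr17, Neu4, Pcdh15 and Vcan under 1 FPKM on average. Their part in the Pdgfra result was not tested. Antisense Gm42802 covers 4.5% of its exon bases.

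Of 5 tested ligands and other receptors of the platelet-derived growth factor family, Pdgfd fell in GFP-AL against GFP-Veh (log2 fold change -0.56 ± 0.15, adjusted p = 0.0134, limma) and 0 were called higher. Pdgfd (0.82 ± 0.15, adjusted p = 0.00164) and Pdgfb, the endothelial ligand that recruits mural cells (0.54 ± 0.15, adjusted p = 0.0159), were higher in LH3-AL than in GFP-AL. Pdgfa, a ligand of the Pdgfra receptor, averaged 6.46 ± 0.6 FPKM in LH3-AL, 8.77 ± 2.68 in GFP-AL and 7.76 ± 1.79 in GFP-Veh and passed in neither comparison. The list's median log2 fold changes were -0.04 and -0.03. Of all tested genes 17.7% were called lower in GFP-AL against GFP-Veh and 17% higher in LH3-AL against GFP-AL. Without the 3 libraries Pdgfd was at -0.36 (adjusted p = 0.065) against GFP-Veh and 0.58 (adjusted p = 0.0087) in LH3-AL against GFP-AL, and Pdgfb was at 0.30 (adjusted p = 0.07) in LH3-AL against GFP-AL. With depth as a covariate Pdgfd was at -0.58 against GFP-Veh (adjusted p = 0.0607).

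Igf2 (chr7:142650766-142666816, minus strand, 8 exon blocks) encodes insulin-like growth factor 2, the product of an imprinted gene that in adult brain is expressed mainly in the choroid plexus, the meninges and vessels. It was listed at 8.18, 6.74, 5.92, 42.5 and 4.66 FPKM in LH3-AL, at 4.13, 37.6, 4.43, 32.6 and 28.5 FPKM in GFP-AL, and at 6.06, 3.83, 5.08, 8.81 and 32.6 FPKM in GFP-Veh. The values split into 10 libraries at 3.83 to 8.81 FPKM and 5 at 28.5 to 42.5 FPKM, the upper class holding 1 LH3-AL, 3 GFP-AL and 1 GFP-Veh library. With such a split the group differences were wide: the log2 fold change was 0.79 ± 0.71 in GFP-AL against GFP-Veh (95% interval -0.71 to 2.29, adjusted p = 0.422, limma) and -0.63 ± 0.71 in LH3-AL against GFP-AL (interval -2.13 to 0.87, adjusted p = 0.521).

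Levels measured beside the split of Igf2 overlapped between the classes. Depth was 24.86 to 29.66 M fragments in the upper 5 libraries and 13.5 to 31.59 M in the lower 10. Ttr, the transthyretin gene and the most abundant choroid plexus marker, was listed at 2680 to 4500 FPKM in the upper class and 1950 to 9070 in the lower, and the fibroblast transporter gene Slc6a13 at 25 to 44.8 and 29.7 to 67.4 FPKM. H19, the neighbouring imprinted RNA, stayed at 0.158 to 0.622 and 0.0887 to 0.622 FPKM. In the annotation 62.8% of the Igf2 exon bases are shared on the same strand with Gm49394, so how the authors' counting divided reads between them bears on its level, and that gene was not analysed here. The antisense Igf2os covers 1.7% and was listed at 0.279 to 0.837 FPKM in the upper class and 0.562 to 1.33 in the lower. The part of these in the split was not tested.

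Several binding proteins of the insulin-like growth factors passed the test where Igf2 did not. Of 11 tested genes of the system 5 were called higher and 0 lower in GFP-AL against GFP-Veh, and the same 5 were lower in LH3-AL than in GFP-AL. Those directions held 10.8% and 11.4% of all tested genes. Igfbp3, the main carrier protein, averaged 52.2 ± 29.4 FPKM in LH3-AL, 139 ± 24.1 in GFP-AL and 22.3 ± 5.35 in GFP-Veh, with log2 fold changes of -1.57 ± 0.31 in LH3-AL against GFP-AL (adjusted p = 0.00204, limma) and 2.60 ± 0.31 in GFP-AL against GFP-Veh (limma, adjusted p = 3.86e-05). Igfbp7, a related secreted protein of vessels, averaged 390 ± 118 FPKM in LH3-AL, 938 ± 209 in GFP-AL and 332 ± 82.1 in GFP-Veh. Igfbp4, Igfbp6 and Insr, the insulin receptor, completed the 5, with log2 fold changes of 1.67, 0.68 and 0.64 in GFP-AL against GFP-Veh. Those in LH3-AL against GFP-AL were -1.41, -0.83 and -0.53. Igfbp4 was at -0.74 in LH3-AL against GFP-AL (adjusted p = 0.0553) without the 3 libraries, and Insr lost its call there with quantile normalization (-0.44, adjusted p = 0.0736) and against GFP-Veh with depth as a covariate (0.56, adjusted p = 0.0769). The receptor genes Igf1r and Igf2r passed in neither comparison. The list's median log2 fold changes were 0.01 and -0.14, and without the 3 libraries 5 and 4 of its genes were called in those directions.

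In LH3-AL against GFP-Veh none of the 10 genes was called, where 0.52% of tested genes were, 0.145% higher and 0.375% lower (limma, with 0 of the 10 at an unadjusted p below 0.05). The nearest was Bgn, at a log2 fold change of 0.24 (95% interval -0.02 to 0.50, adjusted p = 0.606). For the genes that changed in the other comparisons the estimates were 0.10 for Fmod (interval -0.46 to 0.65), -0.14 for Ogn (-0.62 to 0.34), 0.10 for Prelp (-0.22 to 0.41), -0.19 for Aspn (-0.67 to 0.29) and 0.14 for Pdgfra (-0.27 to 0.55). With 5 libraries a group, differences within these intervals are not excluded, so the values do not show that the groups are alike.

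The other fibroblast markers were called in both directions in both comparisons. Of 29 tested markers 4 were called higher and 8 lower in GFP-AL against GFP-Veh, where 10.8% of tested genes were higher and 17.7% lower, and their median log2 fold change was -0.11, beside -0.09 over all tested genes. In LH3-AL against GFP-AL 7 were higher and 3 lower, where 17% of tested genes were higher and 11.4% lower, and the median was 0.02, beside 0.08. The split depended on scaling and libraries: scaling by the median of ratios gave 7 higher and 5 lower in GFP-AL against GFP-Veh, and 7 higher with 7 lower in LH3-AL against GFP-AL. Leaving out the 3 libraries gave 9 higher and 4 lower in GFP-AL against GFP-Veh, and 1 higher with 5 lower in LH3-AL against GFP-AL. Over all genes that median-of-ratios scaling put 51.8% of calls on the higher side in GFP-AL against GFP-Veh, beside 37.9% without it, and 48.5% beside 59.8% in LH3-AL against GFP-AL. Spp1 (osteopontin), Mgp (matrix Gla protein) and Apod (apolipoprotein D) were higher in GFP-AL than in GFP-Veh, at log2 fold changes of 1.83 ± 0.23, 1.69 ± 0.23 and 1.27 ± 0.20. They were lower in LH3-AL than in GFP-AL, at -1.51, -1.05 (SE 0.23) and -0.90. Which cells of the bulk vessels made these transcripts was not tested. Clec3b, which encodes tetranectin, averaged 11.6 ± 1.49 FPKM in LH3-AL, 6.78 ± 1.99 in GFP-AL and 15 ± 4.28 in GFP-Veh and was called lower in GFP-AL (-1.04 ± 0.19, adjusted p = 0.00118) and higher in LH3-AL (0.73 ± 0.19, adjusted p = 0.0128). The transporter genes Slc47a1 and Slc22a6, found in meningeal fibroblasts, were also lower in GFP-AL than in GFP-Veh (-1.72 and -0.83) and higher in LH3-AL than in GFP-AL (1.12 and 0.82). Slc47a1, without the 3 libraries, was at -0.97 (adjusted p = 0.00205) against GFP-Veh and 0.39 (adjusted p = 0.116) in LH3-AL against GFP-AL, and Slc22a6 was at -0.40 (adjusted p = 0.182) and 0.49 (adjusted p = 0.0984), while the calls of Spp1, Mgp, Apod and Clec3b held. With depth as a covariate Slc22a6 was not called against GFP-Veh (-0.81, adjusted p = 0.0766). Col1a1 and Col1a2 passed in neither comparison in the fit of all libraries, but without the 3 libraries Col1a1 was higher in GFP-AL than in GFP-Veh (0.43 ± 0.12, adjusted p = 0.0233).

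Genes that build the sugar chains of the proteoglycans were called in a share no larger than that of all tested genes. Of 22 tested genes of chondroitin, dermatan and keratan sulfate synthesis 1 was higher and 3 lower in GFP-AL against GFP-Veh, and 4 were higher and 2 lower in LH3-AL against GFP-AL, with medians of -0.04 and 0.08, where 28.6% and 28.5% of tested genes were called in the 2 comparisons. Leaving out the 3 libraries gave 3 higher and 1 lower in GFP-AL against GFP-Veh, and 1 higher with 1 lower in LH3-AL against GFP-AL. Chst1, a keratan sulfate sulfotransferase, averaged 17.1 ± 4.52 FPKM in LH3-AL, 27.6 ± 9.47 in GFP-AL and 13.7 ± 2.93 in GFP-Veh. Its log2 fold change was 0.92 ± 0.22 in GFP-AL against GFP-Veh (limma, adjusted p = 0.00583) and -0.64 ± 0.22 in LH3-AL against GFP-AL (adjusted p = 0.0404). The first call was lost with depth as a covariate (adjusted p = 0.0522), and the second without the 3 libraries (0.111) and with quantile normalization (0.0627). Ust (uronyl 2-sulfotransferase) and Csgalnact1, which starts chondroitin chains, went the other way, Ust at -0.60 in GFP-AL against GFP-Veh and 0.72 in LH3-AL against GFP-AL, and Csgalnact1 at -0.37 and 0.41. Csgalnact1 was at -0.15 and 0.21 (adjusted p = 0.248 and 0.107) without the 3 libraries, and its call against GFP-Veh was also lost with both scalings (0.079 and 0.0933) and with depth as a covariate (0.112). Dse, the dermatan sulfate epimerase, was lower in GFP-AL than in GFP-Veh (-0.42 ± 0.13, adjusted p = 0.029), but was at -0.24 (adjusted p = 0.186) without the 3 libraries.

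Transforming growth factor beta genes, whose products proteoglycans bind, split within the family. Of 8 tested genes 3 were higher and 3 lower in GFP-AL against GFP-Veh, and 2 were higher and 3 lower in LH3-AL against GFP-AL. The shares of all tested genes were 10.8% higher and 17.7% lower, and 17% higher and 11.4% lower, in that order. Tgfb1 averaged 19.2 ± 3.84 FPKM in LH3-AL, 38.8 ± 4.52 in GFP-AL and 17.1 ± 2.45 in GFP-Veh, and Ltbp4, a latent binding protein that stores the factor in the matrix, averaged 103 ± 6.25 FPKM in LH3-AL, 51.5 ± 10.6 in GFP-AL and 113 ± 11.4 in GFP-Veh. Tgfb1 was higher (1.14 ± 0.13, adjusted p = 3.79e-05, limma) and Ltbp4 lower (-1.14 ± 0.13, adjusted p = 2.74e-05) in GFP-AL than in GFP-Veh, with the opposite signs in LH3-AL against GFP-AL (-0.99 and 1.01). Tgfb2 was lower in GFP-AL than in GFP-Veh (-0.89 ± 0.19) and higher in LH3-AL than in GFP-AL (1.33 ± 0.19).

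Markers of other cells in the preparation were called in the same comparisons, those of the choroid plexus among them. The labels' protocol has the choroid plexus removed, but its transcripts were present. Of 14 choroid plexus markers, all of which passed the filter, 10 were lower in GFP-AL than in GFP-Veh and 10 higher in LH3-AL than in GFP-AL, among them Sostdc1 (-2.51 and 2.01) and Kcne2 (-2.32 and 2.05), and the list summed to 3190 to 5300 FPKM in LH3-AL, 1990 to 3120 in GFP-AL and 3700 to 9250 in GFP-Veh. Of 10 pericyte markers 3 were lower in GFP-AL against GFP-Veh and 3 higher in LH3-AL against GFP-AL, summing to 1370 to 1700 FPKM in LH3-AL, 857 to 1460 in GFP-AL and 1430 to 1830 in GFP-Veh. Of 10 smooth muscle markers 3 were lower and 2 higher in those comparisons, summing to 654 to 942 FPKM in LH3-AL, 625 to 794 in GFP-AL and 723 to 1220 in GFP-Veh. Of 10 endothelial markers 3 were higher and 3 lower in GFP-AL against GFP-Veh, and 1 was higher and 2 were lower in LH3-AL against GFP-AL, summing to 2140 to 3350 FPKM in LH3-AL, 3210 to 4840 in GFP-AL and 2300 to 3220 in GFP-Veh. Over all tested genes 17.7% were lower in GFP-AL than in GFP-Veh and 17% higher in LH3-AL than in GFP-AL. Without the 3 libraries 7 choroid plexus markers, 0 smooth muscle markers and 1 pericyte marker were lower in GFP-AL than in GFP-Veh. Their part in the lower Fmod, Prelp, Ogn and Aspn was not tested.

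Within groups 9 of the 10 genes varied together from library to library. After group means were removed from log2(FPKM + 1), the 36 pairs among the genes other than Igf2 had Pearson's r of 0.29 to 0.92 over 15 libraries, with a median of 0.665. The highest were Dcn with Islr (0.92) and Fmod with Ogn (0.91). Igf2 had r of -0.18 to 0.44 with the others, and its r with the mean of the other 9 was 0.12 (Spearman's rho 0.05), against 0.61 for Bgn to 0.91 for Islr. These libraries share depth and preparation, and GFP-AL replicates 2 and 3 were the lowest on this shared deviation (-1.16 and -1.35 SD units). The values are therefore a description, and whether pairs of other genes vary together less was not tested.

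**Figure D5:**
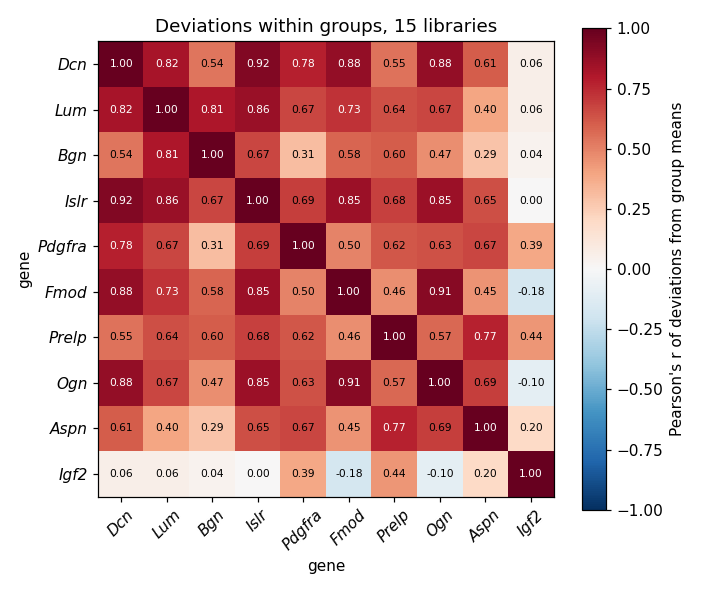
Pearson's r (colour scale and numbers) between each pair of the 10 genes, of deviations from group means of log2(FPKM + 1) over 15 libraries. All pairs without Igf2 are positive, from 0.29 to 0.92, and the Igf2 row runs from -0.18 to 0.44.

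Among tested genes outside the 10, and leaving out predicted genes, those whose deviations were most like the mean deviation of the 10 over the 15 libraries were Zfp386, a zinc finger gene (r = 0.932, rho = 0.914), Colec12, a scavenger receptor gene (0.925, 0.904), Efemp1, which encodes fibulin 3 of the matrix (0.923, 0.932), Col1a2 (0.919, 0.943) and Prkag2, a subunit gene of AMP-activated kinase (0.912, 0.871). Without GFP-AL replicates 2 and 3, the libraries farthest from the median, r was 0.895, 0.926, 0.919, 0.88 and 0.838 for the 5 genes in that order.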

How the data were processed

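Per the labels' protocols, vessels were isolated from perfused brains, after removal of pia mater and choroid plexus, by homogenising in sucrose buffer and spinning slowly. STAR 2.5.1b (an aligner) and the build mm8 are named, with no role stated, per the submitters' processing notes, and no source used here gives the counting step or strandedness. The authors deposited FPKM for 22557 genes in 15 libraries. Of the deposited values 5.99% lie below 0 (lowest -0.465) and none is exactly 0, by a step that no source used here gives; they were set to 0, and none belonged to the 10 genes. The authors also deposited tables of log2 fold changes with p-values and q-values. All 1763 matched genes of their table for GFP-AL against GFP-Veh had the sign computed here. All 1746 of the other had the sign of LH3-AL against GFP-AL, and 58.8% that of LH3-AL against GFP-Veh, which its name gives.

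Rows sharing a symbol (31 symbols) were summed. Groups came from the library titles. For the 13082 genes that averaged 1 FPKM or more, log2(FPKM + 1) was fitted by group in limma 3.58.1 (R 4.3.3). The fit used all 15 libraries and moderated variances with a mean trend, p-values were adjusted by Benjamini-Hochberg over all these genes, and an adjusted p below 0.05 was a call. Fold changes include the added 1, so those of low genes are understated. Scripts were tested on simulated data. Single genes were also tested by exact two-sided permutation of 10 libraries. Depth came from the steps between low values of FPKM times exon length, of which 40.7 to 64.7% per library were whole within 0.1 read, against 20% by chance, so no count test was run. Positions are those of GENCODE M21 (GRCm38), with 22400 of 22557 identifiers matched, and were not converted from the build in the notes.

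The 10 genes and the lists were chosen with earlier results of these data known. Named genes are the 10, up to 4 called genes of a list in a comparison by smallest p, the most abundant gene of a list, and the 5 genes most like the 10. Plod3, Podn, Tsku, Epyc, Optc, Col1a1, Pdgfa, Igf1r and Igf2r were added after their values were seen. So were Insr, H19, Igf2os, Slc6a13, Slc22a6, Slc47a1 and precursor markers under 1 FPKM. Kera, which has no values, was named for its place in its cluster. Alternatives tried were adding 0.1 in place of 1, testing every gene, testing genes of 5 FPKM or more, scaling by the median of ratios, quantile normalization, fitting 2 groups alone, a replicate block, depth as a covariate, and leaving out each library or 3 libraries. For the lists, depth as a covariate was chosen after seeing the data.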

Additional observations from a re-analysis of the deposited data

Results flagged for a closer look

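Across the 30 sets of 5 libraries formed by the 10 genes and 3 groups, 4 held a library far from the other 4, its gap to the nearest exceeding Dixon's critical value of 0.71 times the range. Chance alone does so in about 1 in 20 sets. Prelp was 35.4 FPKM in GFP-AL replicate 4, above the other GFP-AL libraries and below all LH3-AL and GFP-Veh libraries. Igf2 was 42.5 FPKM in LH3-AL replicate 4 and 32.6 FPKM in GFP-Veh replicate 5, both in the upper class of Igf2 values. Islr was 63.5 FPKM in GFP-Veh replicate 2, 1 of the 3 libraries that stood apart, where Dcn, Lum, Bgn, Fmod and Ogn were also at their highest in the group.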

How the results depend on the processing

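The 4 genes called lower in GFP-AL against GFP-Veh became 3 (without Fmod) in a fit of the 2 groups alone, with depth as a covariate and without the 3 libraries that stood apart, and 3 to 5 when each library was left out. The 5 called higher in LH3-AL against GFP-AL became 4 in a fit of the 2 groups alone and 3 without the 3 libraries (Ogn, Prelp and Aspn). They became 3 to 5 when each library was left out, the lowest without LH3-AL replicate 1. Calls over all tested genes moved too. In GFP-AL against GFP-Veh they went from 3737 (37.9% of them higher) to 2723 (41.4%) with 2 groups alone. They were 2280 (43.3%) with depth as a covariate and 3427 (43.6%) without the 3 libraries. In LH3-AL against GFP-AL they went from 3723 (59.8% higher) to 3069 (56%) with 2 groups alone. They were 2759 (54.5%) without the 3 libraries and 2654 (56%) without LH3-AL replicate 1. Estimates of genes not called in a comparison changed sign in 30 cases, in none of which they passed the test, and the cause was not tested. Without the 3 libraries these were Dcn 0.18, Lum 0.32 and Islr 0.22 in GFP-AL against GFP-Veh, Dcn -0.22, Lum -0.16, Bgn -0.01 and Islr -0.03 in LH3-AL against GFP-AL, and Igf2 -0.07 in LH3-AL against GFP-Veh. With median-of-ratios scaling Lum was at 0.08 in GFP-AL against GFP-Veh, and Dcn at -0.05, Lum at -0.03 and Bgn at -0.02 in LH3-AL against GFP-AL. With depth as a covariate Lum was at 0.05 and Igf2 at -0.22 in GFP-AL against GFP-Veh, and Prelp at -0.01 and Igf2 at -0.94 in LH3-AL against GFP-Veh. Leaving out 1 library each time, Lum ran between -0.11 and 0.11 in GFP-AL against GFP-Veh, Dcn between -0.07 and 0.11 and Lum between -0.07 and 0.15 in LH3-AL against GFP-AL, and Lum between -0.02 and 0.16, Fmod between -0.01 and 0.27 and Igf2 between -0.35 and 0.63 in LH3-AL against GFP-Veh.

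Same-numbered libraries deviated together with correlations of -0.26 to 0.29, so the numbers were not taken as pairs. With the replicate block 4 genes were lower in GFP-AL against GFP-Veh and 5 higher in LH3-AL against GFP-AL, and 3783, 3879 and 31 of all genes were called in GFP-AL against GFP-Veh, LH3-AL against GFP-AL and LH3-AL against GFP-Veh, beside 3737, 3723 and 68 without it. Over all genes, LH3-AL against GFP-Veh gave 171 calls in a fit of the 2 groups alone, 156 without the 3 libraries, 1 with depth as a covariate, and 27 to 57 when each library was left out. GFP-AL against GFP-Veh gave 2174 calls with a mean of at least 5 FPKM and 2280 with depth as a covariate, and LH3-AL against GFP-AL gave 2109 with a mean of at least 5 FPKM. Since 4 of 5 GFP-Veh libraries were shallower than every other library, depth and the saline group are largely confounded.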

Other observations

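Markers of immune cells and blood, which are no fibroblast genes, also differed between the groups. The microglia and macrophage genes Cd68, Itgam and Csf1r averaged 15.2 ± 1.85, 3.18 ± 0.45 and 24.2 ± 1.35 FPKM in LH3-AL, 31.2 ± 3.74, 9.59 ± 3.24 and 41.3 ± 8.83 FPKM in GFP-AL, and 13 ± 2.22, 3.04 ± 0.158 and 26.4 ± 5.96 FPKM in GFP-Veh vessels (SD, n = 5). Of 8 such markers 3 were called higher in GFP-AL than in GFP-Veh and 4 lower in LH3-AL than in GFP-AL by limma at adjusted p below 0.05. Those directions held 10.8% and 11.4% of all tested genes. All 6 red cell genes were higher in GFP-AL than in GFP-Veh and 0 passed in LH3-AL against GFP-AL, and 2 of them, Hbb-bt and Alas2, were higher in LH3-AL than in GFP-Veh at log2 fold changes of 1.91 ± 0.35 and 1.95 ± 0.41 (adjusted p = 0.0192 and 0.0459). In LH3-AL against GFP-Veh 0.145% of all tested genes were called higher. The Hbb-bt and Alas2 calls were lost with depth as a covariate (adjusted p = 0.336 and 0.613). In the same comparison 1 of the 6 was called with scaling by the median of ratios, and 5 were called without the 3 libraries that stood apart. Of 8 oligodendrocyte markers 5 were lower in GFP-AL than in GFP-Veh, among them Mag (-1.19 ± 0.27), and 3 were higher in LH3-AL than in GFP-AL. The shares of all tested genes called in these directions were 17.7% and 17%.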
